A study of Mus musculus with 8 samples.

Results

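The globin genes of the mouse were followed in embryos with and without Runx1. The genes were Hbb-y, Hbb-bh1 and Hba-x, which are embryonic, and Hba-a1, Hbb-b1 and Hbb-b2, which are adult. They were chosen by name, and every probe set that the platform annotation assigns to any of these 6 genes was taken, including probe sets that also detect other globins. This gave 14 of the 45037 probe sets tested, of which 10 name 1 gene and 4 are shared by several globins.

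Haemoglobin is a tetramer of alpha-type and beta-type globin chains, each holding a haem group, and it carries oxygen in red cells. In the mouse, primitive red cells arise in the yolk sac, enter the circulation at about the time the heart begins to beat, and make mainly the embryonic chains zeta (Hba-x), beta-h1 (Hbb-bh1) and epsilon-y (Hbb-y), together with the adult alpha chains (Hba-a1 and Hba-a2). As these cells mature, Hbb-bh1 is the beta-type gene used first and Hbb-y gains later. Definitive red cells, which form in the fetal liver, use the adult alpha and adult beta chains. Runx1 encodes a DNA-binding transcription factor that is needed for the emergence of definitive blood cells, whereas primitive red cells form without it.

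RNA of embryo propers (the embryo body), as the study's methods name the samples, was hybridised to 8 Affymetrix mouse genome arrays, with 2 arrays in each of 4 groups. The groups were Runx1 wild-type and Runx1 knockout embryos, each taken on embryonic day 8.5 (E8.5) and day 12 (E12). All mice were on a BALB/c background. The knockout is a germline disruption carried by every cell of the embryo, so it is not restricted to blood, and such embryos die at about the later stage. In an RNA extract of a whole embryo, fewer red cells and less globin RNA per red cell cannot be told apart. Replicates are biological by the study's account, but whether embryos were pooled is not labelled, so a p-value here reflects only how far these samples spread. Values are log2 intensities per probe set, on which a difference of 1 is a 2-fold difference, and an array gives no count of molecules.

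The beta-type genes lie together on chromosome 7 and the alpha-type genes on chromosome 11. In the GRCm38.p6 assembly, Hbb-y is at chr7:103851754-103853207 and Hbb-bh1 at chr7:103841638-103843162, followed by the adult genes Hbb-bs at chr7:103826523-103827928 and Hbb-bt at chr7:103812524-103813923. Hba-x is at chr11:32276600-32278116, Hba-a1 at chr11:32283672-32284486 and Hba-a2 at chr11:32296492-32297310. The reference strain has Hbb-bs and Hbb-bt in the place of Hbb-b1 and Hbb-b2, the adult pair of the haplotype that BALB/c mice carry. Hbb-y had 3 probe sets of its own, Hbb-bh1 3, Hba-x 1, Hba-a1 1, Hbb-b2 2 and Hbb-b1 0. A further 3 probe sets are shared by Hba-a1 and Hba-a2, and 1 is shared by the 4 genes Hbb-bt, Hbb-bs, Hbb-b2 and Hbb-b1. Adult alpha and adult beta are used below for these shared probe sets, and the probe set with the highest mean stands for a gene unless another is named. Globin genes are close in sequence, and a suffix of x in a probe set name marks probes that can also bind related transcripts. The Hbb-b2 probe set described below and the brightest Hbb-y probe set, which stands for that gene, both carry it. So do another probe set of Hbb-y, a dimmer probe set of Hbb-bh1 and the dimmer shared probe sets of adult alpha. A value can thus not be tied to 1 gene with certainty.

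Promoter sequences from RefSeq (GRCm38.p6) were available for 5 of these loci and are shown so that embryonic and adult genes can be compared by their letters. Each line gives the 150 bases that end just before the transcription start, 5′ to 3′ on the gene's own strand. Capitals mark CACCC (the core of sites bound by KLF factors), CCAAT or its complement ATTGG, and the TATA-box letters ATAAAA or TATAAA. The windows are chr7:103853208-103853357 for Hbb-y, chr11:32276450-32276599 for Hba-x, chr11:32283522-32283671 for Hba-a1, chr7:103827929-103828078 for Hbb-bs and chr7:103813924-103814073 for Hbb-bt. The Hba-x and Hba-a1 windows are on the plus strand and the other windows on the minus strand.
Hbb-y: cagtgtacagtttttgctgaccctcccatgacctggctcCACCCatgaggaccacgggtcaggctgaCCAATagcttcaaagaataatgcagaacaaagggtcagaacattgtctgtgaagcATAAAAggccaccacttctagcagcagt
Hba-x: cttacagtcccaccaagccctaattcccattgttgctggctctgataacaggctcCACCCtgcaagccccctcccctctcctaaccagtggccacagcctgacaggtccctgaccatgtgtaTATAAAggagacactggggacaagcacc
Hba-a1: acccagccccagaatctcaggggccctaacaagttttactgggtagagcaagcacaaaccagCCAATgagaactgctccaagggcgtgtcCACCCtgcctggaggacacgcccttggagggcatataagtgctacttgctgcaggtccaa
Hbb-bs: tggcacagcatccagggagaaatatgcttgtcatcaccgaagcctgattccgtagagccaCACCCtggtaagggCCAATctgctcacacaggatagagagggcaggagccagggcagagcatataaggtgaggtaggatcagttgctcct
Hbb-bt: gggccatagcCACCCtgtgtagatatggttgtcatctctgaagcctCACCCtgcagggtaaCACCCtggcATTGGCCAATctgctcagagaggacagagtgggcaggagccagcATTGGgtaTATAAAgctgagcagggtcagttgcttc
Letters were searched on both strands of the 250 bases before each start, and the share of 32851 promoter windows of that length holding the same letters is given beside each. The RUNX letters TGTGGT were in 0 of the 5 windows, against 14% of all windows. The site as the study gives it also allows TGCGGT, which was not searched. CACCC was in all 5, against 52%, and CCAAT was in all but that of Hba-x, against 33.8%. ATAAAA was found only in Hbb-y, against 17%, and TATAAA, which was added after the windows had been seen and can overlap ATAAAA, in Hba-x and Hbb-bt, against 12.4%. The GATA letters AGATAA were in 1 window, Hbb-bs, upstream of the stretch shown, against 9.99%. These are matches of exact letters, and nothing follows from them about binding. Variants were not searched, such as the catataag left in lower case in Hba-a1 and Hbb-bs. A window without a match can thus still hold a TATA box.

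The arrays were compared before the globins were described. Of the 6 Runx1 probe sets, 0 were lower in knockout at E8.5 and 3 at E12, and since their place relative to the disruption is unknown, Runx1 checks nothing about the labels. The brightest probe set of an array lay between 14.83 and 14.94 in E8.5 arrays but between 13.41 and 13.64 in E12 arrays, so a level set across stages rests on the scaling. The actin probes at the 3′ end exceeded those at the 5′ end by 1.48 and 2.61 (wild type) or 1.56 and 2.50 (knockout) at E8.5 on the log2 scale, and by 1.43 to 1.84 at E12. Both E8.5 wild-type arrays stood apart from the other E8.5 arrays. Replicate 2 was the highest of its stage in 11 of the 14 globin probe sets, against 31.8% of all probe sets, and its poly-A controls averaged 11.03 against 5.82 to 7.60. Replicate 1 had a mean of 8.95 over 12 trophoblast markers, against 6.29 to 6.59 in the other E8.5 arrays, with the placental genes Plac1 at 13.30 and Prl4a1 at 12.47. At E12, wild type replicate 2 was the highest in 13 of 14 globin probe sets, against 26.8% of all. The part of these differences in the results was not tested, and the knockout and stage differences of the globins that rest on these arrays are given with and without them.

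Hbb-bh1, the early embryonic beta-type gene, was bright in every array of both genotypes. At E8.5 its log2 intensity in replicates 1 and 2 was 12.78 and 14.29 (wild type) or 13.19 and 13.71 (knockout). At E12 it was 11.86 and 13.19 (wild type) or 12.63 and 12.73 (knockout). At each stage both knockout arrays lay between the wild-type arrays. Among all probe sets of an array it ranked 279, 5, 154 and 71 at E8.5 and 61, 12, 20 and 27 at E12 in the same order of arrays, where 1 is the highest. A rank follows the probes as well as the RNA and orders no globin against another. It was thus near the top of every array, with or without Runx1. Its other 2 probe sets gave the same order at E8.5, from 9.35 in wild type replicate 1 to 12.90 in wild type replicate 2 for the dimmer of them.

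Hbb-y, the embryonic beta-type gene used later, was far from the top at E8.5 in 3 of 4 arrays. It read 9.02 and 13.61 (wild type) or 9.21 and 9.74 (knockout) at E8.5. By E12 it read 12.60 and 13.34 (wild type) or 12.91 and 13.07 (knockout). Wild type replicate 2 was 14.7-fold above the highest other E8.5 array, and the remaining 3 arrays of that stage lay within 1 log2 unit of each other. At E12 the knockout arrays again lay between those of wild type. The rank of Hbb-y was 4608, 81, 3991 and 2879 at E8.5 and 9, 3, 5 and 8 at E12, so that by E12 it was among the 10 highest probe sets of all 4 arrays. The dimmest of the 3 Hbb-y probe sets has no x suffix in its name. That probe set moved from 4.26, 9.37, 4.01 and 4.68 at E8.5 to 11.38, 12.77, 12.07 and 12.20 at E12.

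Hba-x, which encodes the embryonic alpha-type chain zeta, read 9.11 and 12.64 (wild type) or 9.31 and 7.39 (knockout) at E8.5. At E12 the values were 11.30 and 12.73 (wild type) or 12.03 and 12.07 (knockout). The E8.5 wild type replicate 2 array was 10.04-fold above the highest other array of its stage. The knockout arrays of that stage differed from each other by more than those of any other globin named here, with an SD of 1.36 (n = 2). Ranks were 4401, 320, 3762 and 9342 at E8.5 and 166, 42, 78 and 102 at E12.

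Adult alpha, the shared probe set of Hba-a1 and Hba-a2, read 7.27 and 12.61 (wild type) or 7.06 and 7.67 (knockout) at E8.5. At E12 it read 11.41 and 12.65 (wild type) or 11.85 and 12.05 (knockout). The outstanding E8.5 wild type array was 30.7-fold above the next, the widest gap of any globin probe set. At E12 both knockout arrays lay within the wild-type range. The other 2 shared adult alpha probe sets gave the same picture. Hba-a1 alone is represented by a dim probe set that read 4.79 to 5.31 in all 8 arrays and ranked 20941 to 25986, so it showed little change where the shared probe sets moved by several log2 units.

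Adult beta behaved differently. The probe set shared by the 4 adult beta genes read 8.90 and 8.28 (wild type) or 8.98 and 8.28 (knockout) at E8.5. At E12 it read 11.72 and 12.45 (wild type) or 11.33 and 11.86 (knockout). The E8.5 wild type replicate 2 array, which stood out for the other chains, was not high here, at 0.616 times the highest other array of its stage. Ranks were 4905, 6596, 4540 and 6330 at E8.5 and 80, 82, 210 and 136 at E12. All E12 arrays were above all E8.5 arrays.

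Hbb-b2, the minor adult beta chain of this haplotype, has a dimmer probe set of its own that carries the x suffix. It read 4.09 and 4.17 (wild type) or 3.89 and 4.05 (knockout) at E8.5, below the median probe set of those arrays. At E12 the values were 6.39 and 6.49 (wild type) or 5.36 and 5.76 (knockout), and here the genotypes did not overlap. Ranks at E12 were 12536 and 12182 (wild type) or 20870 and 17294 (knockout). The second Hbb-b2 probe set stayed between 4.23 and 4.83 in all 8 arrays.

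**Figure D1:**
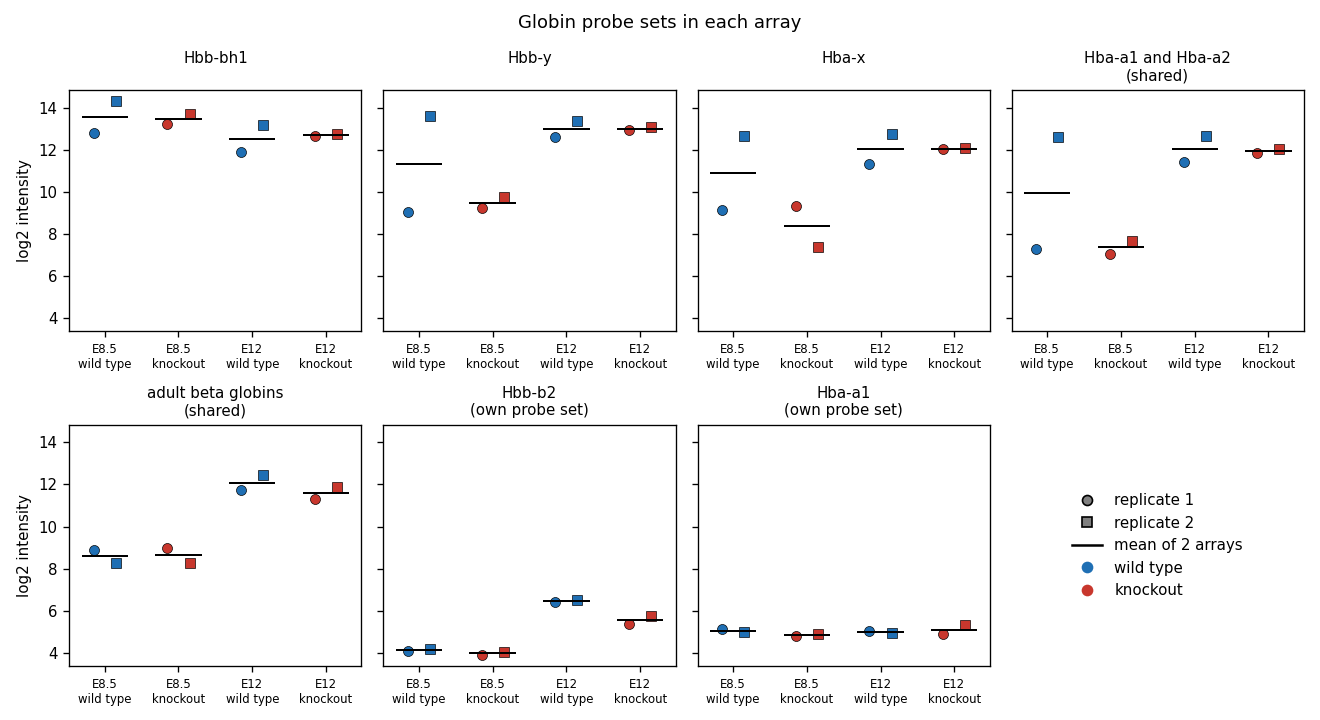
Log2 intensity of 7 globin probe sets (y axis) in the 4 groups (x axis), with circles for replicate 1, squares for replicate 2, blue for wild type, red for knockout and a bar at the mean of 2 arrays. E8.5 wild type replicate 2 lies apart for Hbb-y (13.61), Hba-x (12.64) and the shared adult alpha probe set (12.61), while adult beta and Hbb-b2 separate the stages in every array.

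At E8.5 no globin probe set was called in the limma test of knockout against wild type, which uses a spread shared by all 8 arrays. In the means, 13 of the 14 probe sets were lower in knockout, where 53.1% of all probe sets were lower, and the median globin difference was -1.23. The differences were -1.84 (SE 1.30) for Hbb-y, -2.53 (SE 1.19) for Hba-x, -2.58 (SE 1.53) for adult alpha, -0.084 (SE 0.59) for Hbb-bh1, 0.043 (SE 0.38) for adult beta and -0.16 (SE 0.18) for Hbb-b2. In limma, 0 of the 14 were called at an adjusted p below 0.05, as were 0% of all probe sets, and at an unadjusted p below 0.05 there were 0 of the 14 and 2132 of all. An absolute t above 3, which the study used as its threshold, was reached by 0 globin probe sets and by 2.06% of all. The knockout arrays lay below both wild-type arrays in 3 of the 14 (the dim Hba-a1 probe set and both of Hbb-b2), against 16.1% of all.

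These E8.5 differences rested on wild type replicate 2. Without it, the difference turned to 0.45 for Hbb-y, 0.67 for Hbb-bh1, 0.092 for adult alpha and -0.27 for adult beta, and was -0.76 for Hba-x. Without wild type replicate 1 instead, it was -4.14 for Hbb-y, -0.84 for Hbb-bh1, -5.25 for adult alpha and -4.29 for Hba-x. The count of globin probe sets lower in knockout was 5 of 14 without replicate 2 and 13 of 14 without replicate 1. No direction can be given for the embryonic or adult alpha globins in the E8.5 knockout.

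At E12 the embryonic globins of the knockout differed from wild type by at most 0.15 on the log2 scale. The difference was 0.016 (SE 1.30) for Hbb-y, which was -0.067 after quantile normalization and -0.0032 after median centring, 0.15 (SE 0.59) for Hbb-bh1 and 0.037 (SE 1.19) for Hba-x. Adult alpha was at -0.083 (SE 1.53). These standard errors come from a spread shared by all groups, which the E8.5 wild-type pair widened. Over the 14 probe sets 7 were lower and 7 higher, and the median was -0.0072, beside 0.011 over all probe sets. Leaving out wild type replicate 1 gave 13 lower, and leaving out replicate 2 gave 2 lower, since the knockout arrays lay between the wild-type arrays.

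Adult beta was lower in the E12 knockout means, by 0.49 on the log2 scale (-0.49, SE 0.38), with arrays that overlapped, and was -0.85 without wild type replicate 1 and -0.12 without replicate 2. The Hbb-b2 probe set was at -0.88 (SE 0.18, moderated t -4.77, unadjusted p = 0.00245 and adjusted p = 1.00 in limma). It was lower in 2 of 2 knockout arrays, and the difference ran from -1.08 to -0.68 when each array was left out in turn. The second Hbb-b2 probe set, which is dim and has no x suffix, was at -0.018 (SE 0.17) with arrays that overlapped. Of the 14 globin probe sets, 0 were called at an adjusted p below 0.05, against 0.0133% of all. The Hbb-b2 probe set with the x suffix was the 1 that passed an absolute t of 3 in the lower direction, against 0.473% of all. It was also the 1 whose arrays did not overlap in that direction, against 15.8% of all. At an unadjusted p below 0.05 limma had 1 globin probe set and 713 of all.

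**Figure D2:**
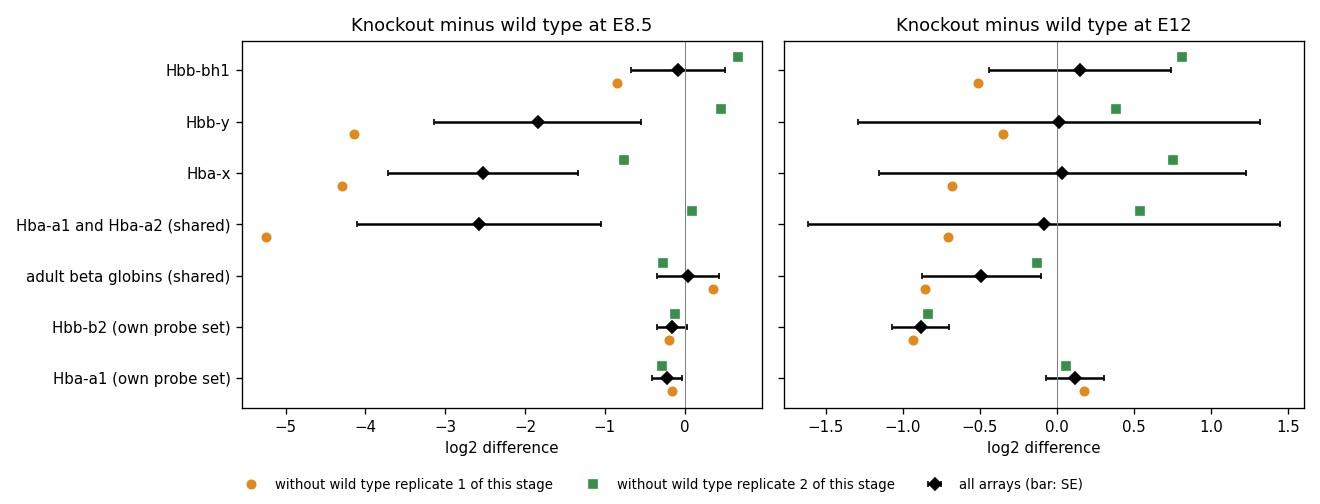
Log2 difference of knockout minus wild type (x axis) for 7 globin probe sets (y axis) at E8.5 and at E12, as black diamonds with the limma standard error, and without wild type replicate 1 (orange circles) or 2 (green squares) of that stage. Omitting replicate 2 moves Hbb-y at E8.5 from -1.84 to 0.45 while the Hbb-b2 probe set with the x suffix stays below 0 at E12. The E12 value of Hbb-y, 0.016, turns below 0 under 2 other scalings. The second Hbb-b2 probe set, at -0.018 at E12, is not shown.

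The knockout difference was then compared between the stages. For Hbb-b2 it was more negative at E12 than at E8.5 by 0.72 (-0.72, SE 0.26, unadjusted p = 0.0297, limma adjusted p = 1.00), and for adult beta by 0.53 (-0.53, SE 0.54). The second Hbb-b2 probe set was at 0.23 (SE 0.24) for this contrast. For Hbb-y the estimate was 1.86 (SE 1.84), which became -0.44 without E8.5 wild type replicate 2. Of the 14 globin probe sets 0 were called, against 0.00444% of all, and at an unadjusted p below 0.05 limma had 1 and 842 of all. A difference of the knockout effect between stages was thus not shown for any globin.

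From E8.5 to E12, adult beta rose in wild-type embryos by 3.50 (SE 0.38, limma adjusted p = 0.00255) and Hbb-b2 by 2.31 (SE 0.18, limma adjusted p = 0.00124). The dimmest Hbb-y probe set rose by 5.26 (SE 1.48, limma adjusted p = 0.0413). These 3 of the 14 were called higher, against 12.1% of all probe sets, and the same 3 were the ones with every E12 array above every E8.5 array, against 30.7% of all. The call of Hbb-y was lost when any of the 6 arrays other than those of E8.5 wild type was left out, which left 2 called; both adult beta calls held each time. Another scaling moved the median of all probe sets for this comparison from -0.0070 to -0.20 (median centring) or 0.31 (75th percentile), and the adult beta change ran from 2.82 to 4.66 over the scalings and other settings.

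The remaining wild-type changes depended on the E8.5 arrays. The brightest Hbb-y probe set changed by 1.65 (SE 1.30, limma adjusted p = 0.393), by 3.95 without E8.5 wild type replicate 2 (limma adjusted p = 0.000774) and by -0.64 without replicate 1. Adult alpha changed by 2.09 (SE 1.53), by 4.76 without replicate 2 and by -0.58 without replicate 1. Hba-x changed by 1.14 (SE 1.19), by 2.90 without replicate 2 and by -0.63 without replicate 1. Hbb-bh1 was at -1.01 (SE 0.59, limma adjusted p = 0.254), and this direction flipped to 0.45 after quantile normalization. Without E8.5 wild type replicate 2 limma called 9 of the 14 globin probe sets, all higher at E12, and 31.2% of all probe sets in either direction. Without replicate 1 it called 6, with 3 higher and all 3 of Hbb-bh1 lower, and 31.5% of all.

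In the knockout, adult beta and the Hbb-b2 probe set with the x suffix rose as well. Knockout replicates at E8.5 lay closer together than those of wild type for all of these genes but adult beta and Hbb-b2. The second Hbb-b2 probe set was not called with stage, at 0.40 (SE 0.17) in knockout and 0.17 (SE 0.17) in wild type. Adult beta rose by 2.97 (SE 0.38, limma adjusted p = 0.00409), Hbb-b2 by 1.59 (SE 0.18, limma adjusted p = 0.00309) and the dimmest Hbb-y probe set by 7.79 (SE 1.48, limma adjusted p = 0.0127). These 3 of 14 were called higher, against 11.6% of all probe sets, and the Hbb-y call was lost when any of the 4 knockout arrays was left out. The E12 arrays were all above the E8.5 arrays in 11 of the 14, against 38.7% of all, and all below in 2, against 36.0% of all, both of which detect Hbb-bh1. The other embryonic and adult alpha changes did not pass with the spread of all 8 arrays: 3.51 (SE 1.30, limma adjusted p = 0.0957) for the brightest Hbb-y probe set, 3.70 (SE 1.19, adjusted p = 0.0645) for Hba-x and 4.59 (SE 1.53, adjusted p = 0.0725) for adult alpha.

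Fitted within the knockout arrays alone, limma called 11 of the 14 globin probe sets, and 44.1% of all. Hbb-y then had an adjusted p of 0.000246, Hba-x of 0.0031, adult alpha of 0.00016 and Hbb-bh1 of 0.0239. Hbb-bh1 was lower at E12 by 0.77 (-0.77, SE 0.59 with all arrays), but quantile normalization turned this to 0.64. Its rank moved the other way, from 154 and 71 at E8.5 to 20 and 27 at E12. The fall in intensity and the rise in rank of Hbb-bh1 stand beside a top of the scale that was lower at E12, so no direction is given for this gene.

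**Figure D3:**
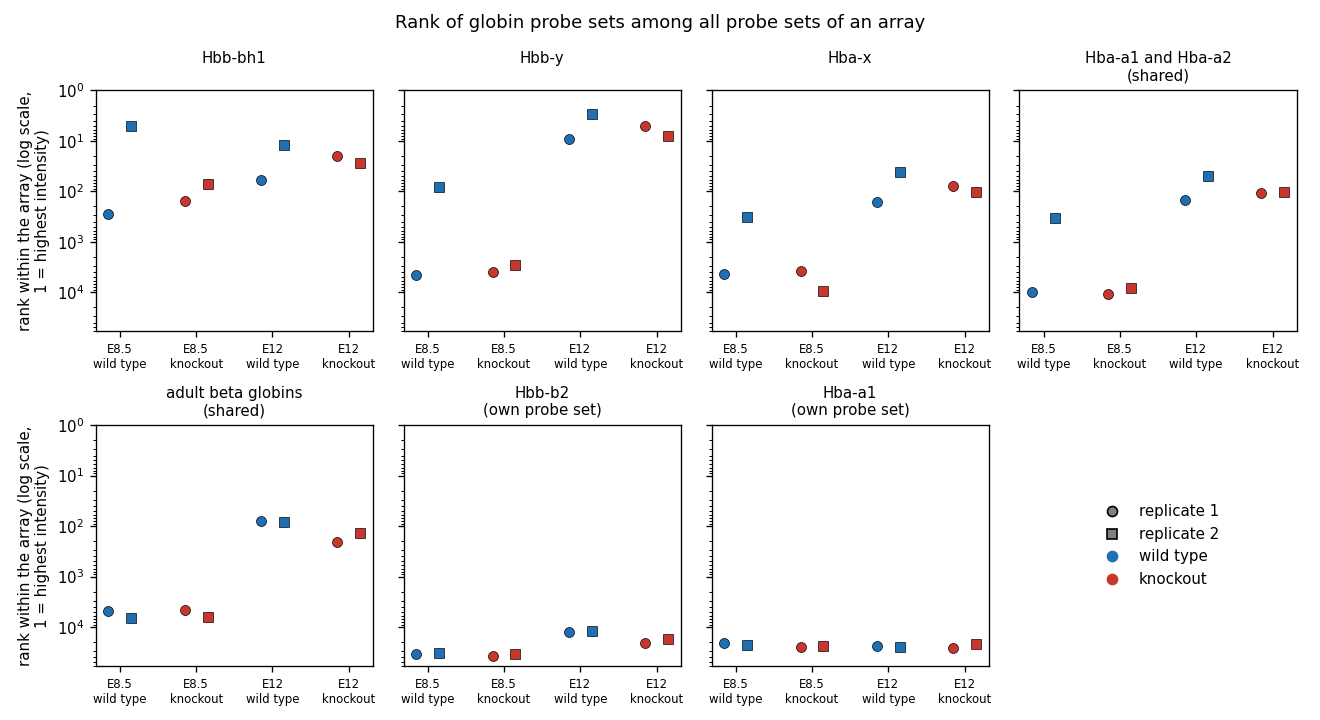
Rank of 7 globin probe sets among the 45037 probe sets of each array (y axis, log scale, 1 the highest) in the 4 groups (x axis), with circles for replicate 1, squares for replicate 2, wild type in blue and knockout in red. At E12 Hbb-y ranks 3 to 9 in all 4 arrays, and adult beta moves from 4540 to 6596 at E8.5 to 80 to 210 at E12 in both genotypes, whereas Hbb-bh1 keeps a rank of 279 or better although its intensity falls (and rises after quantile normalization).

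Differences between globins within an array do not depend on a scaling constant of that array, so they were used to describe the balance of chains. The probes differ, so only how such a difference moves between arrays can be read. The Hbb-y probe set used carries the x suffix, and the part of related transcripts in its values was not tested. Hbb-bh1 minus Hbb-y was 3.76 and 0.68 (wild type) or 3.99 and 3.97 (knockout) at E8.5. At E12 it was -0.74 and -0.15 (wild type) or -0.27 and -0.34 (knockout). The change of the mean between stages was -2.66 for wild type and -4.28 for knockout, and all E8.5 arrays were above all E12 arrays. E8.5 wild type replicate 2 was the nearest of its stage to the E12 arrays.

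Adult beta minus Hbb-bh1 moved in the opposite sense, from -3.88, -6.02, -4.22 and -5.43 at E8.5 to -0.15 and -0.74 (wild type) or -1.31 and -0.86 (knockout) at E12. The change between stages was 4.50 in wild type (5.57 without E8.5 wild type replicate 1 and 3.44 without replicate 2) and 3.74 in knockout. Both knockout arrays were below both wild-type arrays at E12, but with the mean of all probe sets of Hbb-bh1 in its place the genotypes overlapped (wild type 0.71 and 0.062, knockout -0.40 and 0.095). Adult beta minus Hbb-y was -0.89 in both wild-type arrays and -1.58 and -1.20 in the knockout arrays at E12. For Hbb-b2 minus Hbb-y the E12 values were -6.21 and -6.85 (wild type) or -7.55 and -7.31 (knockout). In these comparisons of an adult with an embryonic beta-type gene the E12 knockout mean stood at -0.90 to -0.50 relative to the wild-type mean, with 2 arrays against 2 and no test.

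Adult alpha minus Hba-x was -1.84, -0.031, -2.26 and 0.28 in the E8.5 arrays and between -0.18 and 0.11 in all E12 arrays. Replicate 2 of each genotype at E8.5 was thus close to the E12 values and replicate 1 was not, the same arrays in which the actin 3′ to 5′ difference was high. Its part in this was not tested. Hba-x minus Hbb-y was -1.31 to -0.60 at E12 and 0.095, -0.97, 0.11 and -2.35 at E8.5. Adult alpha minus Hba-x overlapped between the genotypes at both stages, but with the mean of all probe sets of each gene the E12 knockout arrays (-0.74 and -0.57) lay below those of wild type (-0.39 and -0.49).

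**Figure D4:**
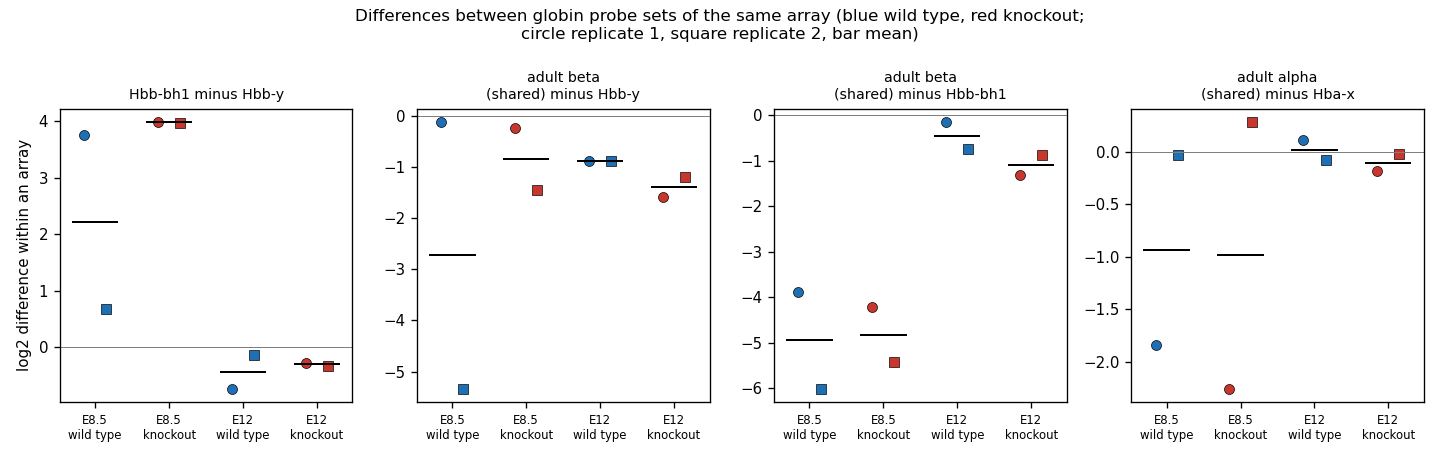
Log2 difference between pairs of globin probe sets of the same array (y axis) in the 4 groups (x axis), with circles for replicate 1, squares for replicate 2, blue for wild type, red for knockout and bars for means. Hbb-bh1 minus Hbb-y falls from 0.68 to 3.99 at E8.5 to below 0 in every E12 array, and adult beta minus Hbb-bh1 rises from -6.02 to -3.88 to between -1.31 and -0.15.

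Genes of haem synthesis and globin assembly were examined next, because globin chains are made in step with haem. Of 13 measured, 13 were lower in the means of the E8.5 knockout (median -0.44, beside -0.018 over all probe sets) and 13 in the E12 knockout (median -0.59, beside 0.011), where 53.1% and 47.5% of all probe sets were lower. In limma 0 were called at either stage. An absolute t of 3 was passed by 2.06% and 0.655% of all probe sets, and by 1 and 4 of these genes. At E8.5 this was Alad, the second enzyme of haem synthesis, at -1.27 (SE 0.30). At E12 they included Gfi1b, at -1.27 (SE 0.30), a repressor needed for red-cell development that is on the list but is not a haem enzyme. The others were Cpox, a later enzyme of the pathway, at -1.12 (SE 0.36), and Tmem14c, which carries porphyrin precursors in mitochondria, at -0.80 (SE 0.23). Slc25a38, the mitochondrial glycine carrier, was at -0.71 (SE 0.21). Without wild type replicate 2 of the stage, 9 of 13 were lower at E8.5 and 11 of 13 at E12, against 51.0% and 53.5% of all.

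Alas2, the red-cell enzyme that begins haem synthesis, followed the globins between arrays. It read 6.92, 8.28, 7.28 and 6.40 at E8.5 and 9.23, 10.93, 9.93 and 9.99 at E12, so that its E12 knockout arrays also lay between the wild-type arrays. It rose with stage by 2.48 in wild type (SE 0.66, limma adjusted p = 0.0349) and 3.12 in knockout (limma adjusted p = 0.0181). Slc25a37, which brings iron into mitochondria, rose by 1.80 in wild type (limma adjusted p = 0.0434) and 2.01 in knockout (limma adjusted p = 0.0328). Cpox fell with stage in knockout by 1.74 (limma adjusted p = 0.0161).

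Regulators of the globin genes gave a mixed picture. Of 24 measured, 15 were lower in the E8.5 knockout (median -0.24) and 17 in the E12 knockout (median -0.28). Over all probe sets 53.1% and 47.5% were lower. Of the 24, 0 were called, and 4 passed an absolute t of 3 at E12, all lower, against 0.473% of all. Gata1, the master regulator of red-cell genes, read 8.128 and 8.005 in the E12 wild-type arrays against 6.43 and 6.62 in knockout, a difference of -1.54 (SE 0.23). Lmo2, a bridging partner of Gata1 and Tal1, was at -1.36 (SE 0.41), Myb, a factor of definitive progenitors, at -1.37 (SE 0.43), and Zbtb7a, a repressor of embryonic and fetal globin genes, at -0.66 (SE 0.20). Klf1, the factor that drives adult beta globin through CACCC sites, had E12 values of 8.94 and 8.84 (wild type) or 7.46 and 7.54 (knockout), with no overlap, but did not pass. At E8.5, without wild type replicate 2, 10 of 24 were lower, against 51.0% of all probe sets. Gata2 read 10.82 in E8.5 wild type replicate 1, against 7.94 to 8.33 in the other E8.5 arrays.

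Bcl11a, a repressor that silences embryonic beta-type genes in definitive red cells and is also made in the nervous system, was called with stage in both genotypes. It rose from 4.01 to 4.42 in the E8.5 arrays to 8.11 to 8.59 at E12, by 4.23 in wild type (SE 0.17, limma adjusted p = 0.000245) and 3.97 in knockout (limma adjusted p = 0.000224). Klf3, a repressor that competes at CACCC sites, rose by 2.28 and 2.23 (limma adjusted p = 0.00243 and 0.00262). Mafg, a small Maf partner of the beta-globin activator Nfe2, changed by -1.50 and -1.56 (limma adjusted p = 0.00478 and 0.00467). The E12 knockout differences of these 3 were -0.44, 0.15 and -0.48, and 0 of them passed an absolute t of 3.

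Red-cell membrane and enzyme genes were mostly higher at E12 than at E8.5, and mostly lower in the knockout means of both stages. With stage, 21 of 25 were higher in wild type, of which 9 were called, and 20 of 25 in knockout, of which 8 were called. Over all probe sets 49.5% and 52.1% were higher, and 12.1% and 11.6% were called higher. Rhag, a subunit of the Rh complex of the red-cell membrane, rose by 4.34 and 3.63, Rhd, its partner, by 3.94 and 4.02, Add2, an adducin of the membrane skeleton, by 2.87 and 3.01, and Icam4, a red-cell adhesion protein, by 2.39 and 1.88. In knockout 19 of 25 were lower at E8.5 (median -0.26) and 22 of 25 at E12 (median -0.48), with 0 called at either stage. Over all probe sets 53.1% and 47.5% were lower, and 2.06% and 0.655% passed an absolute t of 3. Past an absolute t of 3 were Ermap, a red-cell surface protein, at -2.52 (SE 0.69) at E8.5 and Icam4 at -1.07 (SE 0.26) at E12. Without wild type replicate 2 of the stage 15 and 18 of 25 were lower, where 51.0% and 53.5% of all probe sets were lower. Car2, an anhydrase, read 12.20 in E8.5 wild type replicate 1 against 9.66 to 10.22 in the other E8.5 arrays.

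Markers of other blood cells were set beside the red-cell genes. At E12 all 17 platelet and macrophage markers measured were lower in knockout, with a median of -1.35 and 4 called. Over all probe sets 47.5% were lower, the median was 0.011 and 0.0133% were called. The embryonic globins of the same knockout arrays lay within the wild-type range. Pf4, a platelet chemokine, was at 10.31 and 10.79 (wild type) or 4.86 and 4.82 (knockout), and it was the 1 call left when either E12 wild-type or either E8.5 knockout array was omitted. Without either E12 knockout array 0 of the 17 were called, while all 17 stayed lower. The mean over the list was 7.08 and 6.82 (wild type) or 4.99 and 4.98 (knockout) at E12, and 4.91 to 5.30 at E8.5. For the 13 genes of the haem list, Gfi1b included, it was 8.30 and 8.74 against 7.91 and 7.94 at E12. For the 25 red-cell genes it was 7.55 and 7.93 against 7.26 and 7.34.

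Markers that yolk sac endoderm and fetal liver largely share, and markers of trophoblast, were set beside the globins too. Cubn, a receptor of yolk sac endoderm, read 12.99 to 13.35 in all E8.5 arrays and 3.87 to 4.26 at E12, and Ttr, made by that endoderm and later by liver, 13.20 to 13.73 and 8.57 to 9.56. Alb, the albumin of liver, moved from 4.27 to 4.55 up to 10.13 to 11.26. Over the 18 yolk sac and liver markers measured the mean was 9.08 and 9.98 (wild type) or 9.75 and 10.10 (knockout) at E8.5, and 6.82 to 7.28 at E12. In the E8.5 knockout 16 of the 18 were higher (median 0.28) with 0 called, where 46.9% of all probe sets were higher. Without wild type replicate 1 this was 9 of 18 (median 0.00013), and without replicate 2 it was 16 (median 0.85). Of 12 trophoblast markers 9 were lower (median -1.32) with 0 called, where 53.1% of all probe sets were lower. This became 3 of 12 (median 0.12) without replicate 1 and 11 of 12 (median -2.56) without replicate 2. Yolk sac is where primitive red cells form. Cubn was high at E8.5 although the samples are named embryo proper. The part of yolk sac or trophoblast tissue in the E8.5 globin values, and in the globin changes between stages, was not tested.

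**Figure D5:**
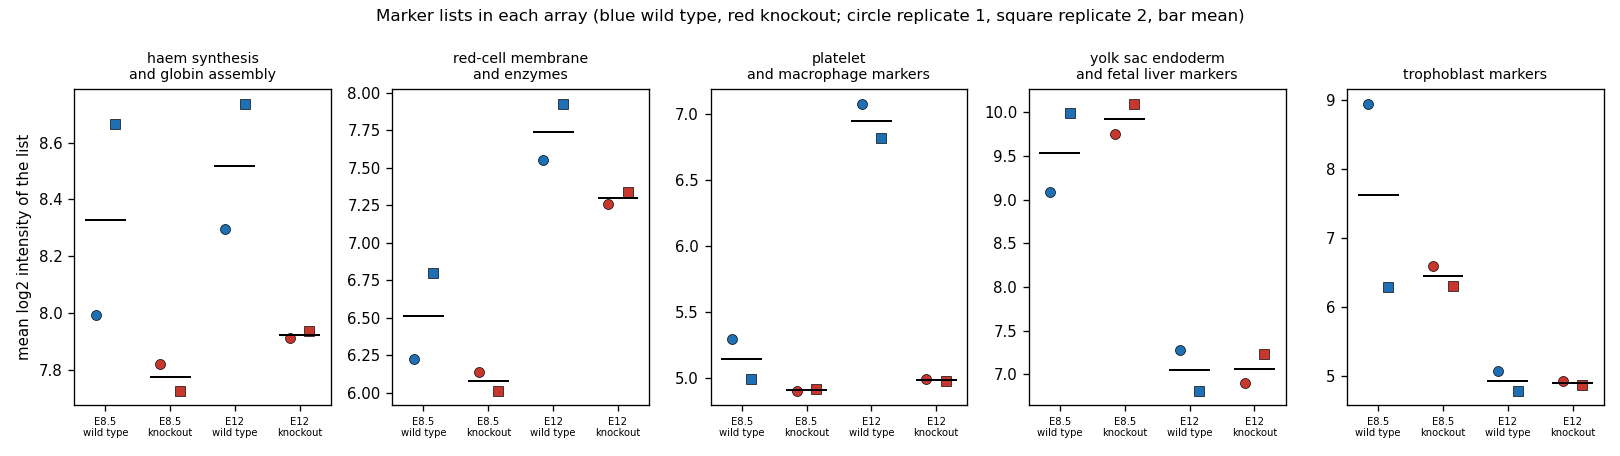
Mean log2 intensity over 5 gene lists (y axis, a scale of its own in each panel) in the 4 groups (x axis), with circles for replicate 1, squares for replicate 2, blue for wild type, red for knockout and bars for means. Platelet and macrophage markers separate the genotypes at E12 (7.08 and 6.82 against 4.99 and 4.98), haem and red-cell genes do so by less, and E8.5 wild type replicate 1 is alone at 8.95 for trophoblast markers.

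Of 9 other globin genes listed, 4 were measured by a probe set of their own (Hba-a2, Mb, Cygb and Ngb). Mb, the myoglobin of muscle, rose with stage by 1.26 in wild type (SE 0.30, limma adjusted p = 0.0227) and was at 0.74 in knockout (limma adjusted p = 0.114). In the knockout comparisons 0 of the 4 were called, with 3 lower at each stage.

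Finally, genes whose pattern over the 8 arrays was most like each globin were listed by Pearson correlation, as a description over arrays that share stage, genotype and scaling. Hbb-y and adult alpha followed each other at r = 0.997, Hbb-y and Hba-x at 0.92, and adult beta and Hbb-b2 at 0.957, while Hbb-y and Hbb-bh1 were at -0.0316 and adult beta and Hbb-bh1 at -0.655. Kel, a blood group protein of the red-cell membrane, was among the 5 genes nearest to adult alpha (r = 0.988), Hbb-y (0.980, place 4) and Hba-x (0.942, place 5). Nearest to Hbb-y was Ppp4r1l-ps (0.9825) and nearest to Hba-x was Ppp1r12b (0.9556). Apart from Kel, none of the genes nearest to these globins is on the red-cell list used above. In array order Kel read 3.96, 6.80, 4.14 and 4.15 at E8.5, then 6.39, 7.58, 6.63 and 6.74 at E12, and so repeated the high value of E8.5 wild type replicate 2. Nearest to Hbb-b2 were Ep400 (r = 0.996), Cldn13 (0.991), a claudin of mouse red-cell precursors, and a probe set of Add2 (0.988). Cldn13 read 8.07 and 8.88 (wild type) or 7.11 and 7.46 (knockout) at E12. Nearest to adult beta were Acta1 (r = 0.994), the actin of skeletal muscle, and Grin2d (0.993), a glutamate receptor subunit, neither of which is a red-cell gene, and nearest to Hbb-bh1 was Rbm5 (0.990), a splicing factor.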

How the data were processed

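RNA of mouse embryo propers was measured on 8 Affymetrix mouse genome arrays with 1 colour. Per the methods, total RNA was extracted with Trizol and amplified in 2 rounds before labelling, which starts from the 3′ end of transcripts. The authors summarized the probes by Robust Multi-array Analysis. What they deposited is a linear (not logged) intensity for each probe set. Joint normalization of all arrays is not stated, and detection calls were not used. The 64 controls among 45101 probe sets were dropped. By the platform annotation, updated through RefSeq (GRCm38.p6), a single symbol was found for 34945, several for 932 and none for 9160. The deposited table had 0 columns that were not used.

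Intensities were put on the log2 scale as they stood, without a pseudocount or a dim-probe filter. The tool was limma 3.58.1, run under R 4.3.3, and lmFit and eBayes estimated a mean for each group from all 8 arrays at once. Knockout was contrasted with wild type at each stage, these effects were contrasted with each other, and the stages were contrasted inside each genotype. Calls were made where p, adjusted over the whole table by Benjamini-Hochberg, was below 0.05, and an absolute moderated t above 3, the threshold in the study's methods, was counted beside it. The fit was tested on simulated data with known changes. Groups came from the sample labels. The number of arrays limits the precision.

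All member probe sets entered the counts, and values are given for those that stand for a gene and for some of the others. The brightest probe set of its own stood for a gene, and shared probe sets are given as shared. From each list, the called genes (up to 4 by absolute t), or else those past an absolute t of 3, or else the 2 of greatest absolute t, were eligible to be named, and each member was compared with the 5 genes of highest Pearson correlation. Klf1, Gata2, Car2, Plac1, Prl4a1 and Cldn13 with their values, and Alas2 in each array, were picked after their values were seen. The members, lists and motifs were chosen with earlier results of these data known. Alternatives were quantile normalization, median and 75th percentile centring, log2(intensity + 16), a filter on dim probe sets, trended and robust variances, array weights, each stage or genotype alone, the replicate number as a block, and each array left out.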

Additional observations from a re-analysis of the deposited data

How the results depend on the processing

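The calls of adult beta and Hbb-b2 with stage, in both genotypes, kept their direction and their side of the threshold under all alternatives that gave them a value, and in the knockout comparisons 0 globin probe sets were called under any setting that uses the adjusted p. An absolute t above 3 gave 1 call for the knockout at E12, against 0.655% of all probe sets. For stage in knockout it gave 5, against 30.1% of all. With both wild-type replicate 2 arrays left out, a setting chosen after seeing the data, the E8.5 knockout difference reversed to 0.45 for Hbb-y, 0.67 for Hbb-bh1, 0.092 for adult alpha and -0.27 for adult beta, that of adult alpha at E12 to 0.54, and the difference between stages to -0.072 for Hbb-y and 0.14 for adult beta. Other scalings reversed the E12 knockout difference of Hbb-y (-0.067 by quantile normalization, -0.0032 by median centring), the stage change of Hbb-bh1 (0.45 in wild type and 0.64 in knockout by quantile normalization) and that of the Hba-a1 probe set in wild type (0.24 by the 75th percentile). The cause was not tested.

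Globin calls for stage were 3 in wild type and 3 in knockout with all arrays, beside 27.8% and 25.6% of all probe sets. Those in knockout were 9 by quantile normalization, 8 by the 75th percentile and 11 with each genotype alone, beside 17.6%, 34.2% and 44.1% of all. They were 6 with dim probe sets left out and 10 with array weights, beside 37.8% and 44.2% of all. With each array left out in turn, globin calls moved in both genotypes, as did the share of all probe sets called. Within arrays, the stage change of adult beta minus Hbb-y in knockout, -0.55, was -1.98 with the mean of all probe sets, and that of Hbb-b2 minus Hbb-y, -1.93, was -3.14 by quantile normalization, -2.49 with a pseudocount of 16 and -3.96 with the mean of all probe sets.

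Leave-one-out ranges of the differences that reversed were, for the E8.5 knockout, -4.14 to 0.45 for Hbb-y, -0.84 to 0.67 for Hbb-bh1, -5.25 to 0.092 for adult alpha and -0.31 to 0.39 for adult beta. For the E12 knockout they were -0.35 to 0.38 for Hbb-y, -0.51 to 0.82 for Hbb-bh1, -0.68 to 0.76 for Hba-x, -0.70 to 0.54 for adult alpha and -0.088 to 0.33 for the Hba-a1 probe set. For the difference between stages they were -0.44 to 4.16 for Hbb-y, -0.52 to 0.99 for Hbb-bh1 and -0.18 to 5.16 for adult alpha. For stage in wild type they were -0.64 to 3.95 for Hbb-y, -0.63 to 2.90 for Hba-x and -0.58 to 4.76 for adult alpha.

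Samples share replicate numbers across groups, but nothing says that a number marks a litter or a batch. With the replicate number as a block, 6 globin probe sets were called for stage in knockout, and the other globin counts were unchanged at 0 and 3. Deviations of same-numbered samples correlated at 0.372 between the E8.5 groups and 0.173 between the E12 groups, and at -0.121 to 0.0756 across stages. A block with the numbers swapped at E12, added after seeing the data, called 0 for the knockout and 3 for stage in each genotype. Over all probe sets it called at most 0.00444% for the knockout, and for stage 28.6% in wild type and 26.3% in knockout.

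Limits are the 2 arrays per group, a wider spread at E8.5 that enters all tests, and probes that related globins share. Intensity near the top of an array's range, where Hbb-y and Hbb-bh1 lie, can understate differences, and dim probe sets such as that of Hba-a1 lie near background.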
